A study of Mus musculus with 12 samples.

Results

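The differentiation of Kctd10-depleted myoblasts was measured in 6 of the 12 RNA sequencing libraries of the study: 3 libraries of cells treated with siKctd10 and kept undifferentiated (D0), and 3 of cells treated with siKctd10 and differentiating (D2). All cells were C2C12, a mouse myoblast line that forms multinucleated myotubes when serum is lowered. The members were chosen by their titles, and the remaining 6 libraries, 3 each at D0 and D2, received a non-targeting siRNA (siControl) and served as the comparison. Per the labels, D0 cells stayed below confluence in medium with 10% serum and were harvested after 48 h of siRNA. D2 cells were changed to 2% horse serum 24 h after siRNA and harvested 48 h after differentiation began. Medium, cell density, time with siRNA and day therefore changed together and cannot be told apart. Of 25774 genes matched, 13076 reached 1 TPM, the unit of transcript abundance scaled to the same total in each library, in at least 3 libraries and were tested, and the comparison asked which of them the depleted cells still switched on or off.

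A single siRNA against Kctd10 was used. KCTD10 is an adaptor that brings substrates to CUL3 ubiquitin ligases, and the series' title links ubiquitin-dependent remodelling of actin to cell fusion. The agents that define the arms are printed 5′ to 3′, as the design text gives them.
siKctd10: ccagcaauucugacgauaa
siControl: ugguuuacauguuuucuga
The siKctd10 sequence, read as DNA, matched 7 transcripts in the mouse annotation, all of Kctd10. In the coding transcripts it lies in the coding sequence across the junction of exons 5 and 6 (GRCm38, chr5:114367390-114368345, minus strand). The siControl sequence matched 0 of 141767 annotated transcripts.
Kctd10 (2 transcripts) was at 24.8, 24.5 and 20.0 TPM at D0 and 34.3, 26.8 and 35.1 TPM at D2 in siKctd10 cells, against 272, 258 and 269 TPM at D0 and 285, 276 and 289 TPM at D2 in siControl cells. Every depleted library lay far below every control library, with 8.7% of the control mean left at D0 and 11.3% at D2 (two-sided exact permutation test, p = 0.1 at D0 and at D2, which is the lowest value possible with 3 libraries a group). Within the depleted cells Kctd10 rose slightly over differentiation (log2 change 0.45, SE 0.11, adjusted p = 0.011), and this call was lost when the libraries numbered 3 were left out (adjusted p = 0.08).

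Myoblast differentiation is directed by basic helix-loop-helix factors, first MYF5 and MYOD and then myogenin, acting with MEF2 proteins. Cells leave the cell cycle, activate contractile and calcium-handling genes, and fuse through the membrane proteins myomaker and myomixer. ID proteins oppose the bHLH factors by binding their partners.

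Depleted cells changed widely over differentiation. At an adjusted p under 0.05 (limma, two-sided, on log2(TPM + 1)), 3021 genes rose, which is 23.1% of those tested, and 1735 fell, which is 13.3%. The shares in siKctd10, 23.1% rising and 13.3% falling, are the comparison for every list count in siKctd10 below. In siControl cells 2803 genes rose (21.4%) and 1836 fell (14.0%). The D0 and D2 libraries of siKctd10 did not overlap for 6331 genes, 48.4% of those tested, and 4659 genes were both called and without overlap. By at least 2 on the log2 scale, 309 genes rose and 65 fell. The split of rises and falls depended on scaling. Rises made up 63.5% of 4756 calls in TPM and 51.8% of 4738 calls after median-ratio scaling, where the median change of all genes was 0.00 instead of 0.12 on the log2 scale.

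Libraries held an estimated 12510000 to 18080000 read pairs, and 12023 to 12604 genes reached 1 TPM. On the second principal component (10.4% of the variance) the siKctd10 libraries numbered 3 stood farthest out on both days, at -42.4 each, against -1.2 to -20.3 for the other siKctd10 libraries. Without both of them 4075 genes were called. TPM of genes with several or overlapping transcripts could jump between replicates. Among genes with a mean of at least 5 TPM, replicates of some group differed by over 3-fold in 26.01% of 7816 such genes. The share was 6.88% of 2514 for single-transcript genes, whose 1 transcript shares no exon base with another. The latter are named plainly below, and for other genes the number of transcripts, or overlap with another gene, is given.

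**Figure D1:**
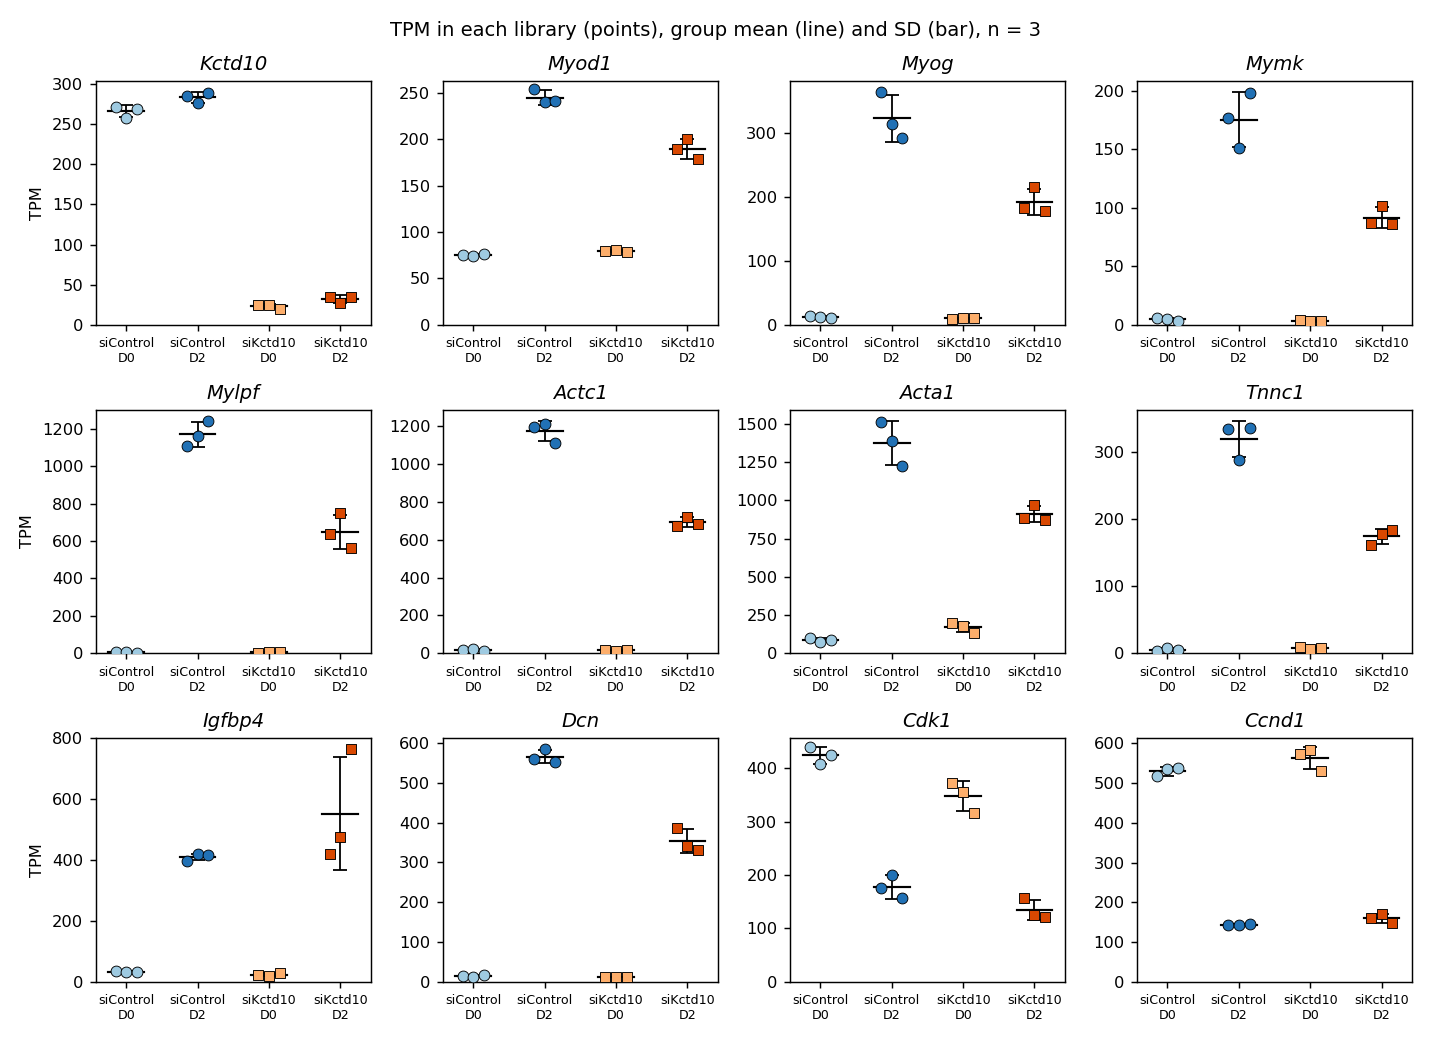
TPM (vertical axis, starting at 0) of 12 genes in all 12 libraries, grouped by siRNA and day. Points are libraries, horizontal lines group means and bars SD (n = 3). The 11 genes other than Kctd10 change in the same direction in both arms, and Myog, Mymk, Mylpf, Actc1, Acta1 and Tnnc1 reach lower levels in siKctd10 than in siControl cells at D2.

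Most of the myogenic transcription factors rose. Of 17 tested, 11 rose and 0 fell in depleted cells, with a median change of 0.63 against 0.12 over all genes. Myog, the myogenin gene that drives terminal differentiation, was at 9.10, 10.3 and 10.95 TPM at D0 and 183, 216 and 178 TPM at D2 (log2 change 4.12, SE 0.14, adjusted p = 5.8e-08). Every D2 library is more than 10-fold above every D0 library. Myod1, which starts the program, was at 79.4, 80.6 and 79.0 TPM at D0 and 189.5, 200.2 and 179 TPM at D2 (log2 change 1.24, SE 0.06, adjusted p = 4.3e-07). Its D0 values span less than 2 TPM, and the lowest D2 library is at 179 TPM. Myf5 was at 92.5, 95.0 and 86.0 TPM at D0 and 115, 115 and 113 TPM at D2 (log2 change 0.32, SE 0.08, adjusted p = 0.012). That rise is small, without overlap, and lost its call when the libraries numbered 3 were left out (adjusted p = 0.059). Mef2c (7 transcripts) was at 2.39, 2.85 and 2.59 TPM at D0 and 9.54, 5.16 and 5.13 TPM at D2 (log2 change 1.03, SE 0.23, adjusted p = 0.0058), and Mef2d (4 transcripts) was at 48.0, 41.6 and 51.4 TPM at D0 and 79.6, 91.8 and 99.1 TPM at D2 (log2 change 0.93, SE 0.10, adjusted p = 9.0e-05). Both MEF2 genes separate by day, with 1 library of Mef2c well above its replicates. Under median-ratio scaling 7 of the 17 rose and 0 fell. Members that did not pass included Msc (musculin, a repressor), at -0.14 and adjusted p = 0.64, and Myf6 (MRF4), at 0.27 and adjusted p = 0.31. Pax7, a marker of muscle stem cells, rose from 12.9, 14.1 and 11.2 TPM to 22.2, 19.2 and 14.9 TPM (log2 change 0.51, SE 0.16, adjusted p = 0.03).

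The promoter of Myog is shown because this gene marks the switch. It is the 250 bases before the start (RefSeq, GRCm38.p6, chr1:134289754-134290003, plus strand).
Myog: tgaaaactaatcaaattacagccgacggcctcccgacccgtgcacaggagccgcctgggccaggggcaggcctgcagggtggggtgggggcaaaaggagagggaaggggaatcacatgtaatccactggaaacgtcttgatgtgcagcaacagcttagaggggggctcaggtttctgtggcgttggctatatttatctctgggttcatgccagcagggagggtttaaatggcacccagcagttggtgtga
It held neither the E-box letters CAGCTG nor the MEF2-like letters TATTTNTA on either strand, which says only that these letters are not in this window. CAGCTG is a single spelling of the E-box, CANNTG, and the window holds others, cagttg and cacatg, that were not searched. The A/T-rich stretch ctatatttat was not covered by the search either.

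In both arms the changes of these factors can be read side by side. Myog changed by 4.12 in siKctd10 and 4.64 in siControl cells (interaction -0.52, adjusted p = 0.39). For Myod1 the changes were 1.24 and 1.69 (interaction -0.45, adjusted p = 0.051), the closest to the threshold of the group. Mef2c changed by 1.03 and 2.23 (interaction -1.20, adjusted p = 0.17), and its D2 mean in siKctd10 was 31.9% of the siControl mean. Mef2d changed by 0.93 in both arms, and its D2 mean was 113.9% of the siControl mean. Of the 13 factors that rose in siControl, 11 changed less in siKctd10, against 60.7% of the 2803 genes that rose in siControl. This count is no test, because picking genes by their siControl rise favours a smaller change in siKctd10. No factor of this list passed the interaction test, in which 97 genes, 0.742% of those tested, passed.

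The ID genes went down. Id1 was at 55.4, 44.4 and 42.4 TPM at D0 and 25.6, 23.7 and 20.9 TPM at D2 (log2 change -0.98, SE 0.15, adjusted p = 0.00052), and Id2 at 166, 174 and 149 TPM at D0 and 94.8, 95.1 and 81.0 TPM at D2 (log2 change -0.85, SE 0.11, adjusted p = 0.00024). Both were lower in every D2 library than in any D0 library. Id3 was at 559.6, 483 and 387 TPM at D0 and 423, 320.2 and 303 TPM at D2 (log2 change -0.45, SE 0.15, adjusted p = 0.044), where the days overlap and the call was lost when any of 4 libraries was left out singly. Other listed antagonists of bHLH factors rose, among them the Notch targets Heyl and Hey1. Heyl was at 4.81, 4.03 and 6.60 TPM at D0 and 39.2, 42.8 and 49.7 TPM at D2 (log2 change 2.88, SE 0.17, adjusted p = 1.1e-06), and Hey1 at 5.70, 6.48 and 7.41 TPM at D0 and 19.8, 19.7 and 16.7 TPM at D2 (log2 change 1.39, SE 0.17, adjusted p = 0.00014). Of 17 members of this list, 9 rose and 4 fell, the fourth being Twist2 (-1.29, adjusted p = 0.00022). The Notch ligand gene Dll1 rose too, from 3.58, 3.61 and 3.04 TPM to 23.6, 24.9 and 25.7 TPM (log2 change 2.55, SE 0.15, adjusted p = 1.2e-06), and 9 of 17 Notch pathway genes rose and 0 fell.

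Both fusogens were induced in cells depleted of Kctd10. Mymk (2 transcripts), which encodes myomaker, was at 3.84, 3.18 and 2.88 TPM at D0 and 87.4, 102 and 85.8 TPM at D2 (log2 change 4.43, SE 0.16, adjusted p = 7.2e-08). Mymx (4 transcripts), which encodes myomixer, was at 0.215, 0.253 and 1.52 TPM at D0 and 29.0, 37.8 and 32.3 TPM at D2 (log2 change 4.43, SE 0.26, adjusted p = 1.2e-06). All D2 libraries lie far above all D0 libraries for both genes. At D2 the mean of Mymk was 52.3% and that of Mymx 64.2% of the siControl mean, and the interaction did not pass for either (adjusted p = 0.49 and 0.78). Cdh15 (M-cadherin, an adhesion protein of myoblasts) was at 112, 149.7 and 138 TPM at D0 and 426, 452 and 351 TPM at D2 (log2 change 1.61, SE 0.13, adjusted p = 9.2e-06). Cd164, a sialomucin gene, was at 341, 391 and 354 TPM at D0 and 762, 806 and 736 TPM at D2 (log2 change 1.08, SE 0.07, adjusted p = 3.3e-06), and its siControl values were 711, 729.7 and 789 TPM at D0 and 1247, 1387 and 1381 TPM at D2. Both genes separate by day, and Cd164 is lower in depleted than in control cells on both days. Of 37 fusion genes tested, 14 rose (37.8%, against 23.1% of all genes), 3 fell (8.11%, against 13.3%: Itga3, Ehd1 and Nfatc2) and 20 did not pass. Cdh2 (N-cadherin) was among the latter, at 73.4, 81.7 and 76.9 TPM at D0 and 80.9, 97.3 and 80.1 TPM at D2, with overlapping days (log2 change 0.15, SE 0.10, adjusted p = 0.3).

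The contractile genes had the highest median changes of the lists examined. Of 20 myosin chains and binding proteins, 19 rose and 0 fell, with a median change of 2.66, and of 23 genes of the thin filament 16 rose and 0 fell, with a median of 2.65. In siKctd10 at D0 the whole myosin list summed to only 38.9 to 40.5 TPM. Members near 0 TPM at D0 reached the 1 TPM filter through D2 libraries and could hardly fall. These counts and medians therefore follow in part from the filter, and other muscle lists share this limit for such genes. Mylpf, the fast regulatory light chain, was at 0, 8.29 and 5.89 TPM at D0 and 637, 747 and 564 TPM at D2 (log2 change 7.34, SE 0.83, adjusted p = 9.5e-05). One D0 library is listed at 0, and every D2 library is far above every D0 library. Actc1, the cardiac actin used in developing muscle, was at 16.2, 13.5 and 17.7 TPM at D0 and 675, 722 and 684 TPM at D2 (log2 change 5.38, SE 0.15, adjusted p = 3.8e-08). Tnnc1, the slow troponin C, was at 9.59, 6.03 and 8.17 TPM at D0 and 162, 179 and 184 TPM at D2 (log2 change 4.32, SE 0.29, adjusted p = 3.1e-06). In these 2 genes the replicates of each day are close together and the days are far apart. Myh3 (3 transcripts), the embryonic myosin heavy chain, was at 2.48, 2.17 and 6.23 TPM at D0 and 199, 234 and 612 TPM at D2 (log2 change 6.16, SE 0.45, adjusted p = 5.2e-06). The D2 library numbered 3 is the high one, as it is at D0. Myl4 (2 transcripts), an embryonic light chain, was listed at 0 in all D0 libraries and at 16.4, 119.7 and 183 TPM at D2, so no fold is given (adjusted p = 9.4e-05), and its call was lost when only transcripts with identical introns were counted (adjusted p = 0.27).

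Lmod2, a leiomodin that lengthens thin filaments, was at 0.124, 0.236 and 1.13 TPM at D0 and 17.5, 21.1 and 36.8 TPM at D2 (log2 change 4.12, SE 0.31, adjusted p = 5.6e-06). Klhl41, a Kelch protein of muscle, was at 3.03, 2.23 and 2.18 TPM at D0 and 47.8, 64.5 and 41.2 TPM at D2 (log2 change 3.89, SE 0.17, adjusted p = 1.9e-07). Both genes are at or below 3.03 TPM in every D0 library. Tpm1 (12 transcripts), an abundant tropomyosin gene, did not pass (796, 775 and 897 TPM at D0 and 854, 957 and 1094 TPM at D2, log2 change 0.23, SE 0.12, adjusted p = 0.17). Its days overlap. In the Z-disc and titin scaffold 24 of 34 genes rose and 1 fell (Fhl3, -0.40). Ttn (8 transcripts), the titin gene, was at 1.15, 0.988 and 1.51 TPM at D0 and 14.3, 16.8 and 16.1 TPM at D2 (log2 change 2.92, SE 0.12, adjusted p = 1.3e-07). Des (overlapping), desmin, was at 231, 227 and 356 TPM at D0 and 574, 838 and 726 TPM at D2 (log2 change 1.41, SE 0.18, adjusted p = 0.00019). Des is high in 1 of the D0 libraries, the one numbered 3, and all D2 libraries are higher still.

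The promoters of Mylpf and of Ckm, the muscle creatine kinase gene, are shown as examples of genes that were nearly silent at D0. Each is the 250 bases before the start (RefSeq, GRCm38.p6), at chr7:127211358-127211607, plus strand for Mylpf and chr7:19410844-19411093, plus strand for Ckm. Capitals mark the E-box letters CAGCTG, at bases 51 to 46 before the start in Mylpf and 249 to 244 in Ckm.
Mylpf: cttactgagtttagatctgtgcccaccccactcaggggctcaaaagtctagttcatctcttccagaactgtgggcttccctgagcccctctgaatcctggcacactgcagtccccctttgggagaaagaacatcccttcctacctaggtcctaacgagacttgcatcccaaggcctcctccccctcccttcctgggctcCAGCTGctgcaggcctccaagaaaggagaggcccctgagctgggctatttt
Ckm: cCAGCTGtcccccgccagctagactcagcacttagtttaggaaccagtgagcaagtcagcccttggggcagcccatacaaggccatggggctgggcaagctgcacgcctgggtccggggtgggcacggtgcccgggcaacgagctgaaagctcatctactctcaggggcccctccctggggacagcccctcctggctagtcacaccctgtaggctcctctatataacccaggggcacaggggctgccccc
Ckm (overlapping) was at 0.321, 0.181 and 0.584 TPM at D0 and 15.4, 30.3 and 20.9 TPM at D2 (log2 change 4.05, SE 0.23, adjusted p = 9.3e-07). All D0 libraries are under 1 TPM, and in siControl cells the D0 libraries are listed at 0. Ckb, the brain-type creatine kinase, was at 39.4, 29.6 and 31.9 TPM at D0 and 183, 202 and 160.2 TPM at D2 (log2 change 2.40, SE 0.13, adjusted p = 6.7e-07), without overlap. Of 28 genes of creatine, glycogen and fuel use, 12 rose (42.9%, against 23.1% of all genes) and 3 fell (10.7%, against 13.3%).

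Calcium handling and the postsynaptic apparatus followed. Atp2a1 (overlapping), the fast SERCA pump, was at 1.63, 2.74 and 1.73 TPM at D0 and 29.5, 51.3 and 36.4 TPM at D2 (log2 change 3.71, SE 0.21, adjusted p = 9.1e-07). Ryr1 (3 transcripts), the calcium release channel, was at 0.851, 0.857 and 0.702 TPM at D0 and 11.5, 14.8 and 20.4 TPM at D2 (log2 change 3.17, SE 0.19, adjusted p = 1.5e-06). Both were under 3 TPM in every D0 library. Of 25 genes of excitation-contraction coupling 16 rose and 1 fell (Clcn1, -0.78). Chrng (4 transcripts), the fetal acetylcholine receptor subunit, was at 7.07, 9.99 and 6.69 TPM at D0 and 258, 275 and 276 TPM at D2 (log2 change 4.94, SE 0.17, adjusted p = 6.6e-08), and its D2 values lie within the range of siControl cells (215, 224 and 319.8 TPM). Among 19 neuromuscular junction genes 14 rose and 1 fell (Etv4, -1.76). In the dystrophin-glycoprotein complex 13 of 21 rose and 1 fell (Pomt1, -0.48), among them Sgca (alpha-sarcoglycan), which was at 0.982, 0.618 and 0.508 TPM at D0 and 4.75, 7.01 and 7.28 TPM at D2 (log2 change 2.10, SE 0.19, adjusted p = 1.9e-05).

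Summed myosin RNA at D2 stood below that of control cells in every depleted library, which did not hold for every muscle list. Summed over all listed genes, the myosin list reached 1457 TPM in siKctd10 (SD 353, n = 3) and 2464 TPM in siControl cells (SD 70.6, n = 3), which is 59.1%. Of the 20 genes of the myosin list that rose in siControl cells, 19 changed less in siKctd10, and of 17 such thin filament genes 15 did. The share was 60.7% of all genes that rose in siControl cells. Picking genes by their siControl rise favours a smaller change in siKctd10, so these counts are a description and no test. The interaction test passed for 2 genes of the myosin list (Myh8 and Mylk4) and 2 of the thin filament list (Acta1 and Tmod1). The D2 mean of Mylpf was 55.5% of the siControl mean and that of Myh3 107.6%, raised by the library numbered 3. The thin filament sum was at 77.9% and that of excitation-contraction coupling at 88.1%. In both of these lists, too, the sum at D2 was lower in every depleted library than in every control library. The Z-disc sum averaged 3470 TPM in siKctd10 and 3315 TPM in siControl cells at D2. For the neuromuscular junction these were 1896 and 1808 TPM, and for the dystrophin-glycoprotein complex 2072 and 2040 TPM. In these last lists the libraries of the arms overlapped. In bulk RNA, fewer cells that express a gene and less of its RNA per cell cannot be told apart.

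**Figure D2:**
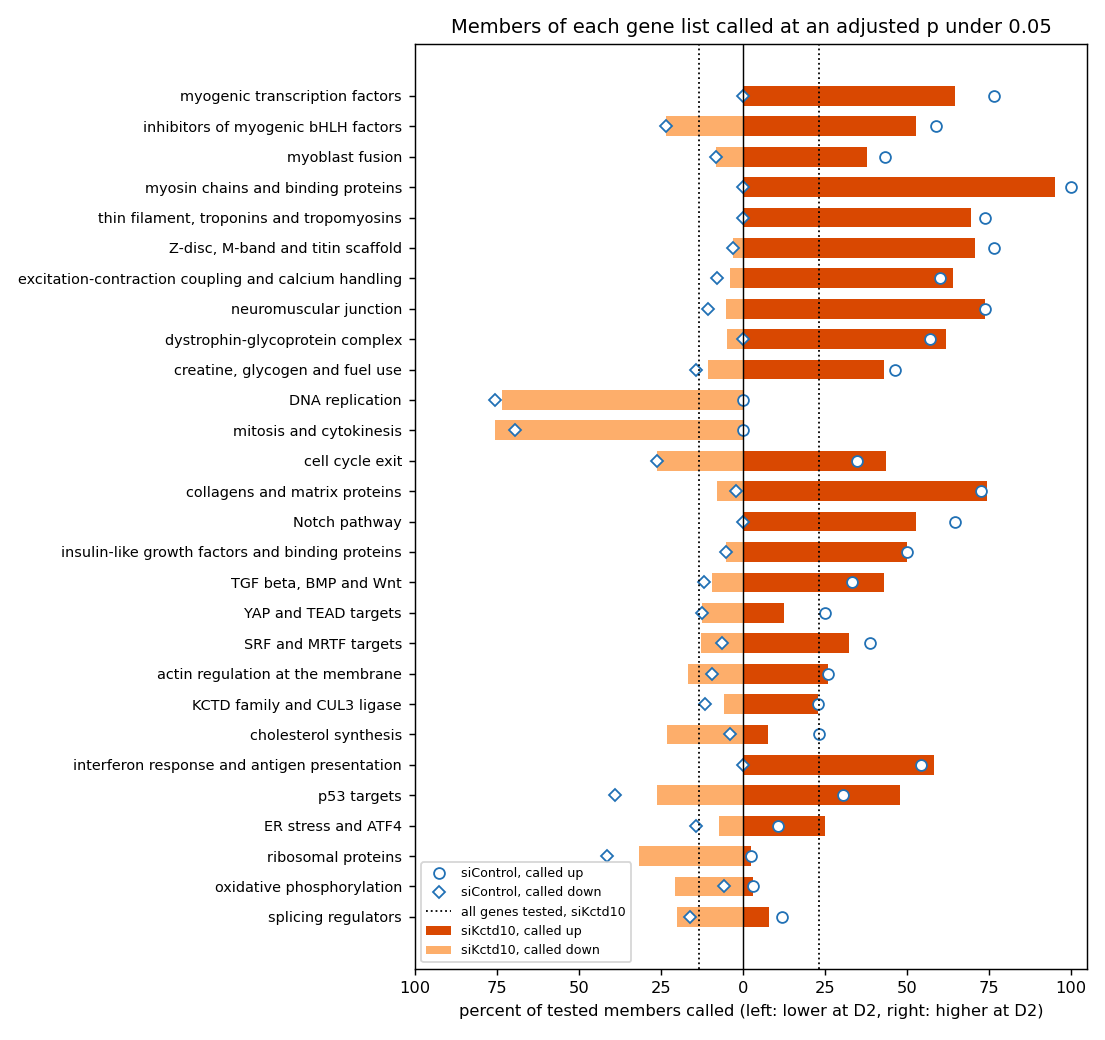
Percent of the tested members of each gene list that rose (right) or fell (left) at an adjusted p under 0.05, with bars for siKctd10 and open symbols for siControl cells. Dotted lines give the share of all genes tested in siKctd10, 23.1% rising and 13.3% falling. The muscle lists, collagens and matrix proteins lie to the right of the dotted line and the DNA replication and mitosis lists to the left.

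Most DNA replication and mitosis genes fell. Of 49 DNA replication genes 36 fell and 0 rose (median -1.25), and of 49 genes of mitosis and cytokinesis 37 fell and 0 rose (median -1.31). Cdk1, the kinase that drives entry into mitosis, was at 372, 355 and 316 TPM at D0 and 156, 126 and 122 TPM at D2 (log2 change -1.37, SE 0.12, adjusted p = 1.4e-05). Mki67, a marker of cycling cells, was at 276, 271 and 311 TPM at D0 and 106, 128 and 122 TPM at D2 (log2 change -1.26, SE 0.10, adjusted p = 1.1e-05). The days do not overlap in either gene, and RNA of both was still above 100 TPM in every D2 library. Mcm3 (overlapping), a subunit of the replicative helicase, was at 138, 120.3 and 100.5 TPM at D0 and 27.6, 29.0 and 37.8 TPM at D2 (log2 change -1.89, SE 0.14, adjusted p = 6.4e-06). Ccne1, cyclin E1, was at 90.5, 98.6 and 78.2 TPM at D0 and 26.2, 27.2 and 24.0 TPM at D2 (log2 change -1.75, SE 0.11, adjusted p = 1.9e-06). In siControl cells Mcm3 changed by -2.06 and Ccne1 by -1.95, and neither interaction passed (adjusted p = 0.85 and 0.74). Mcm5 (3 transcripts), of the same complex, was at 38.9, 52.6 and 51.4 TPM at D0 and 14.7, 13.8 and 11.98 TPM at D2 (log2 change -1.74, SE 0.16, adjusted p = 2.4e-05). Ccnb1 (2 transcripts), cyclin B1, was at 197, 32.1 and 187 TPM at D0 and 85.1, 12.2 and 71.4 TPM at D2 and did not pass (log2 change -1.30, SE 1.17, adjusted p = 0.43), with 1 of 3 libraries low on each day. No gene of either list passed the interaction test.

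Promoters of Cdk1 and Mcm5 are shown as examples of genes that fell. Each is the 250 bases before the start (RefSeq, GRCm38.p6), at chr10:69352913-69353162, minus strand for Cdk1 and chr8:75109259-75109508, plus strand for Mcm5. Capitals mark the letters TTTGAA and CCAAT in Cdk1 and CCAAT in Mcm5, on either strand.
Cdk1: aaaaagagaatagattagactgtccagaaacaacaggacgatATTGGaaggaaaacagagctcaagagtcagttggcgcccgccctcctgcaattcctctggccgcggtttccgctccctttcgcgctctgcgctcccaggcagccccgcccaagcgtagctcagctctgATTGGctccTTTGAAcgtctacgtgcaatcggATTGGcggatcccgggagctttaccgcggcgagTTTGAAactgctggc
Mcm5: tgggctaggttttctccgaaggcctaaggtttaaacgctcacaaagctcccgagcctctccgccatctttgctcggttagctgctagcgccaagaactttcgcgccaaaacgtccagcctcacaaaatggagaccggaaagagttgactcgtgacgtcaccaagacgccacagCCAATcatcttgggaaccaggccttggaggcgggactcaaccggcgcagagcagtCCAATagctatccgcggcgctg
In Cdk1, TTTGAA lies at bases 71 to 66 and 15 to 10 before the start. CCAAT lies on the strand opposite to the printed one, at bases 208 to 204, 80 to 76 and 48 to 44. In Mcm5, CCAAT lies at bases 77 to 73 and 22 to 18, and the E2F-like letters GCGGGAA were not in this window. GCGGGAA is a single spelling of E2F-like sites, and others, such as the stretch tttcgcgcc in this window, were not searched.

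Shares of promoters with these letters were counted over 12571 promoters of 9874 tested genes, in windows of the same 250 bases. CAGCTG was in 16.1% of promoters of genes that rose in siKctd10, 9.1% of those that fell and 12.3% of all. TTTGAA was in 9.74%, 13.9% and 10.7%, CCAAT in 32.6%, 38.8% and 35.5%, and GCGGGAA in 5.25%, 8.59% and 6.8%. TATTTNTA was rare throughout, at 3.38%, 2.36% and 2.88%. A match describes letters in a window and shows no bound factor.

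The cell cycle exit list, which holds brakes of the cycle and also the cyclin gene Ccnd1, changed in both directions. Cdkn1a (3 transcripts), the p21 inhibitor, was at 88.6, 88.9 and 77.4 TPM at D0 and 215, 198 and 198 TPM at D2 (log2 change 1.25, SE 0.10, adjusted p = 8.1e-06). Rb1 (overlapping), the retinoblastoma gene, was at 67.2, 65.1 and 55.3 TPM at D0 and 143, 126 and 119.6 TPM at D2 (log2 change 1.04, SE 0.10, adjusted p = 2.7e-05). Ccnd1 (2 transcripts), cyclin D1, was at 574, 584 and 531 TPM at D0 and 160.4, 169.8 and 148 TPM at D2 (log2 change -1.82, SE 0.07, adjusted p = 7.2e-08). In each gene the days are far apart, with both brakes higher and the cyclin lower at D2. Gadd45a (overlapping), a stress-induced growth arrest gene, was at 25.7, 24.3 and 25.9 TPM at D0 and 269, 246 and 230.0 TPM at D2 (log2 change 3.24, SE 0.11, adjusted p = 6.6e-08). Of 23 genes in the list 10 rose and 6 fell, and under median-ratio scaling 7 rose and 7 fell. These counts do not give the direction of the brakes alone.

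Depleted cells also raised genes of the extracellular matrix. Of 51 collagens and matrix proteins 38 rose and 4 fell, with a median of 1.06, and in siControl cells 37 rose and 1 fell. Dcn (2 transcripts), the proteoglycan decorin, was at 11.1, 12.5 and 11.7 TPM at D0 and 387, 342 and 329.9 TPM at D2 (log2 change 4.79, SE 0.11, adjusted p = 1.7e-08). Prelp, another small leucine-rich proteoglycan, was at 2.41, 2.12 and 3.12 TPM at D0 and 98.9, 92.6 and 124 TPM at D2 (log2 change 4.90, SE 0.14, adjusted p = 3.8e-08). Mfap5, a microfibril protein gene, was at 0.464, 0.874 and 0.578 TPM at D0 and 38.3, 30.2 and 23.6 TPM at D2 (log2 change 4.26, SE 0.29, adjusted p = 3.4e-06). All 3 are low in every D0 library and far higher in every D2 library. The 4 that fell, of which 2 fell without D0 library 1, were Loxl2 (-2.09), Nid1 (-1.17), Lamc1 (-0.43) and Lamb1 (-0.35). Summed over the list, matrix RNA reached 22640 TPM (SD 1834, n = 3) at D2 in siKctd10 and 17811 TPM (SD 447, n = 3) in siControl cells.

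Genes of the insulin-like growth factor system rose in 10 of 20 cases and fell in 1 (Igfbp6, -0.46). Igfbp4, which binds insulin-like growth factors, was at 21.1, 18.9 and 28.9 TPM at D0 and 419, 475 and 763 TPM at D2 (log2 change 4.50, SE 0.21, adjusted p = 3.6e-07). The D2 library numbered 3 stands above the others. Igf2 (5 transcripts), a growth factor that myoblasts make as they differentiate, was at 1.60, 0.784 and 1.52 TPM at D0 and 9.39, 13.2 and 11.9 TPM at D2 (log2 change 2.45, SE 0.19, adjusted p = 8.1e-06). Its levels are low on both days, yet the days do not overlap, and siControl cells reached 23.6, 29.7 and 33.2 TPM at D2. For Igf2 the interaction did not pass (-0.95, adjusted p = 0.2). H19 (3 transcripts), the imprinted RNA next to Igf2, was at 104, 121 and 120.3 TPM at D0 and 669.8, 793 and 733 TPM at D2 (log2 change 2.66, SE 0.09, adjusted p = 5.8e-08). In siControl cells H19 averaged 84.2 TPM at D0 and 1029.6 TPM at D2. Its interaction passed (-0.93, adjusted p = 0.0097), though not under every setting tried. Of 42 genes of TGF beta, BMP and Wnt signalling, 18 rose (42.9%) and 4 fell (9.52%). Interferon response and antigen presentation genes rose in 14 of 24 cases and fell in 0. Gbp2 (overlapping), an interferon-induced GTPase, was at 10.4, 9.86 and 9.61 TPM at D0 and 40.5, 31.3 and 30.0 TPM at D2 (log2 change 1.66, SE 0.14, adjusted p = 1.0e-05).

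Of 54 actin regulators at the membrane 14 rose (25.9%) and 9 fell (16.7%), near the 23.1% and 13.3% of all genes, with 9 rising and 8 falling without the libraries numbered 3, and 5 falling without D0 library 1. Capza1, a subunit of the actin capping protein, was at 43.9, 60.0 and 41.6 TPM at D0 and 79.3, 73.7 and 74.5 TPM at D2 (log2 change 0.65, SE 0.16, adjusted p = 0.0086), and at 177, 197 and 194 TPM at D0 and 188, 175 and 249 TPM at D2 in siControl cells. Depleted cells hold less of it on both days, and its call was lost without the libraries numbered 3 (adjusted p = 0.059). Of 31 targets of SRF and MRTF 10 rose (32.3%) and 4 fell (12.9%, near the share of all genes), and under median-ratio scaling 7 rose and 7 fell. Without D0 library 1, D0 library 2 or D2 library 1 only 2 of them fell. Acta2, smooth muscle actin, was at 1596, 1681 and 1409 TPM at D0 and 2285, 2947 and 2222 TPM at D2 (log2 change 0.66, SE 0.13, adjusted p = 0.0027). In siControl cells Acta2 averaged 600 TPM at D0 and 1313 TPM at D2 (log2 change 1.13), and the interaction did not pass (adjusted p = 0.4). Myl9, a light chain of smooth muscle and nonmuscle cells, did not pass (204, 177 and 149.7 TPM at D0 and 163, 151 and 137 TPM at D2, log2 change -0.22, SE 0.11, adjusted p = 0.15). Its siControl means were 73.9 TPM at D0 and 84.5 TPM at D2. Of 24 targets of YAP and TEAD 3 rose (12.5%, below the 23.1% of all genes) and 3 fell (12.5%, near the 13.3%), or 5 fell without the libraries numbered 3. Among 35 genes of the KCTD family and CUL3 ligase 8 rose, at 22.9% near the share of all genes (5 without the libraries numbered 3), and 2 fell, and neither Cul3 (2 transcripts) (-0.29, adjusted p = 0.7) nor the close paralog Kctd13 (0.03, adjusted p = 0.94) passed.

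Ribosomal, respiratory and cholesterol lists held more falls than rises in TPM. Of 41 ribosomal protein genes 13 fell and 1 rose (median -0.49), and of 34 oxidative phosphorylation genes 7 fell and 1 rose (median -0.19), with 4 falling without D0 library 2, without D2 library 2 or without the libraries numbered 3. The 13.3% of all genes that fell is the comparison for these shares. For cholesterol synthesis 6 of 26 fell and 2 rose in siKctd10, against 1 and 6 in siControl cells, and under median-ratio scaling 10 fell and 1 rose in siKctd10. Idi1, an isoprenoid enzyme, was at 194, 203 and 173 TPM at D0 and 138, 134 and 132 TPM at D2 in siKctd10 (log2 change -0.49, SE 0.07, adjusted p = 0.00054) and 125, 127 and 132 TPM at D0 and 118, 125 and 131 TPM at D2 in siControl cells. In depleted cells every D0 library is above every control library. For Idi1 the interaction did not pass (-0.46, adjusted p = 0.1). Of 23 targets of p53 11 rose and 6 fell, of 28 genes of ER stress and ATF4 7 rose and 2 fell, and of 25 splicing regulators 2 rose and 5 fell. The splicing falls numbered 3 without D0 library 2 or D2 library 3, 2 without the libraries numbered 3 and 1 without D2 library 1, and the ER stress falls 4 without D0 library 2 or the libraries numbered 3.

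Among single-transcript genes that passed, without overlap of days and with a mean of at least 5 TPM in the higher group, the 15 largest rises held Mylpf, Actc1, Prelp, Igfbp4, Tnnc1, Mfap5, Myog, Lmod2 and Klhl41, described above, and Ly6c2, Gpr153, Rbm24, R3hdml, Polr2f and Mir6923. Rbm24, a splicing regulator of muscle, was at 4.44, 3.66 and 2.93 TPM at D0 and 67.5, 71.3 and 63.7 TPM at D2 (log2 change 3.88, SE 0.13, adjusted p = 5.8e-08). R3hdml was listed at 0 in all D0 libraries and reached 12.3, 13.1 and 10.1 TPM at D2. Gpr153, an orphan receptor gene, was at 3.94, 2.73 and 4.05 TPM at D0 and 73.3, 71.9 and 64.3 TPM at D2 (log2 change 3.96, SE 0.13, adjusted p = 5.8e-08). Ly6c2, a surface antigen gene, was at 2.75, 7.16 and 2.72 TPM at D0 and 97.8, 77.3 and 84.9 TPM at D2 (log2 change 4.17, SE 0.28, adjusted p = 3.1e-06). At D2 the siKctd10 mean was 60.8% of the siControl mean for Rbm24, 101.5% for R3hdml, 100.8% for Gpr153 and 34.8% for Ly6c2, and the interaction passed for none of the 4. Polr2f, a polymerase subunit gene, was at 0, 0 and 12.8 TPM at D0 and 16.7, 40.1 and 34.9 TPM at D2, so its rise rests on 2 D0 libraries listed at 0 (adjusted p = 0.048).

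By the same rule the 15 largest falls were those of Pdcd5, Prl2c3, Itgb7, Tigit, Sh2d1b1, Car8, Nqo1, Lgr6, Prl2c1, Cldn15, Tmem171, Klk10, Apln, Pnp2 and Dusp9. Pdcd5, linked to programmed cell death, was at 47.4, 43.1 and 26.8 TPM at D0 and 0.221, 2.02 and 0.645 TPM at D2 (log2 change -4.42, SE 0.85, adjusted p = 0.0027), and its siControl D0 libraries were uneven (51.7, 53.9 and 4.16 TPM at D0 and 1.96, 0 and 0.151 TPM at D2). Prl2c3 (proliferin 3, a prolactin family hormone) was at 3131, 3068 and 2311 TPM at D0 and 147, 152 and 157 TPM at D2 (log2 change -4.20, SE 0.26, adjusted p = 2.0e-06), and Prl2c1 at 10.5, 3.87 and 4.08 TPM at D0 and listed at 0 at D2. Proliferin genes are near-identical copies, so reads may be split among them and their values are uncertain. Nqo1, a quinone reductase, was at 75.5, 121 and 76.2 TPM at D0 and 9.44, 10.2 and 18.0 TPM at D2 (log2 change -2.78, SE 0.31, adjusted p = 8.4e-05). Itgb7, an integrin subunit, was at 75.5, 87.2 and 77.8 TPM at D0 and 8.03, 9.03 and 8.79 TPM at D2 (log2 change -3.08, SE 0.15, adjusted p = 3.6e-07). Dusp9, a phosphatase that inactivates MAP kinases, was at 54.9, 58.3 and 49.7 TPM at D0 and 8.97, 10.1 and 9.54 TPM at D2 (log2 change -2.39, SE 0.11, adjusted p = 3.4e-07). Tigit, a receptor known from lymphocytes, was at 78.5, 74.7 and 81.2 TPM at D0 and 9.88, 8.43 and 9.22 TPM at D2 (log2 change -2.96, SE 0.18, adjusted p = 1.4e-06). Apln, a secreted peptide, was at 38.9, 41.7 and 36.4 TPM at D0 and 5.68, 6.70 and 6.33 TPM at D2 (log2 change -2.47, SE 0.14, adjusted p = 1.2e-06). For each of these genes all D2 libraries are below all D0 libraries, as the rule required.

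Much of the response was common to both arms, which share no library. Of the 3021 genes that rose in siKctd10, 2217 (73.4%) also rose in siControl cells, where they make up 79.1% of the rises. Of the 1735 that fell, 1313 (75.7%) also fell in siControl cells, 71.5% of the falls there. Opposite calls were made for 18 genes. A further 804 genes rose in siKctd10 and did not pass in the same direction in siControl cells, and 19 of these passed the interaction test. Of 422 such falls, 4 did. In the other direction 586 rises and 523 falls in siControl cells were not called in the same direction in siKctd10, with 13 and 14 passing the interaction test. For the rest of these genes the arms were not shown to differ.

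**Figure D3:**
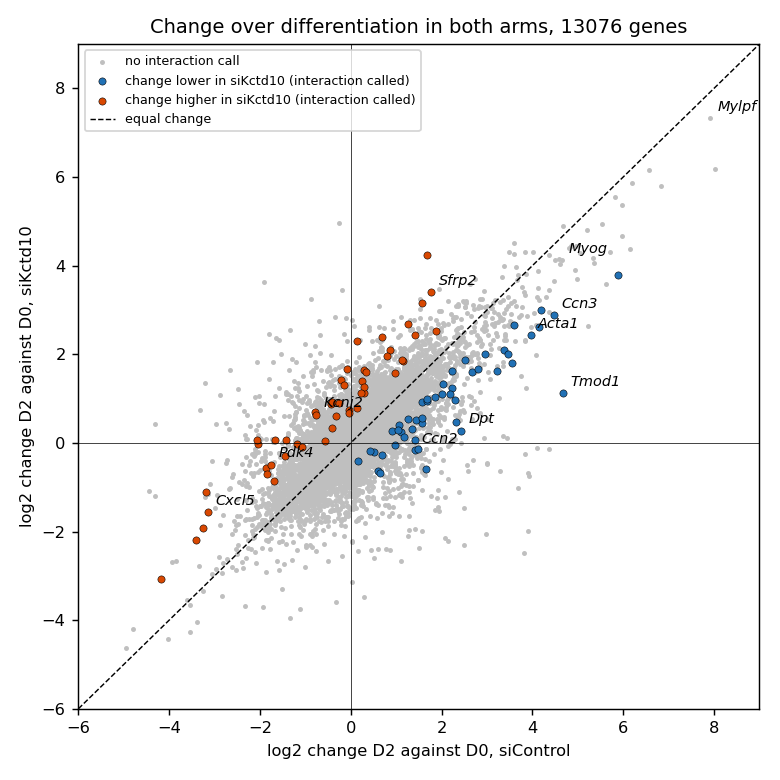
Log2 change from D0 to D2 in siControl (horizontal) and siKctd10 cells (vertical) for 13076 genes, each point a gene. The dashed line marks equal change, and coloured points are the 97 genes that passed the interaction test, 49 above the line and 48 below it.

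The interaction test compares the change in siKctd10 with that in siControl cells. Of the 48 genes with a smaller or more negative change in depleted cells, 34 still rose in both arms, 10 rose in siControl cells and did not pass in siKctd10, 3 rose in siControl and fell in siKctd10, and 1 fell in siKctd10. Of 35 named genes that passed, 9 kept the call under every setting tried: Acta1, Cavin2, Ccn2, Ccn3, Cxcl5, Dpt, Kcnj2, Pdk4 and Sfrp2. Casq1, Tmod1, Kcnj2, Sfrp2 and Col12a1 are shown because they are list members that passed, a choice made after their values were seen. The contractile genes among them were Acta1 (2 transcripts), Myh8 (8 transcripts), Tmod1 (2 transcripts) and Mylk4. Acta1, skeletal actin, was at 196, 175 and 135 TPM at D0 and 885, 969 and 872 TPM at D2 in siKctd10 and 102, 72.9 and 87.2 TPM at D0 and 1513, 1391 and 1223 TPM at D2 in siControl cells (interaction -1.53, SE 0.22, adjusted p = 0.016). It starts higher in every depleted D0 library and ends lower in every depleted D2 library. Tmod1, which caps the pointed ends of thin filaments, was at 0.271, 0.366 and 0.635 TPM at D0 and 3.31, 2.59 and 0.909 TPM at D2 in siKctd10 and 0.793, 0.505 and 0.685 TPM at D0 and 48.9, 42.4 and 33.3 TPM at D2 in siControl cells (interaction -3.54, SE 0.39, adjusted p = 0.0052). In depleted cells every D2 library stays below every control D2 library, and the D2 library numbered 3 is the low one. Myh8, the perinatal myosin, reached 4.54, 5.06 and 6.34 TPM against 16.4, 16.2 and 18.7 TPM at D2 (interaction -1.53, adjusted p = 0.0052), and Casq1 (2 transcripts), the calcium store protein calsequestrin, 2.50, 2.39 and 1.95 TPM against 10.1, 8.18 and 8.06 TPM (interaction -1.59, adjusted p = 0.006). For both, every depleted D2 library is below every control D2 library.

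Ccn3, a matricellular protein gene, was at 4.41, 5.12 and 4.29 TPM at D0 and 41.7, 37.8 and 41.8 TPM at D2 in siKctd10 and 7.73, 9.30 and 10.4 TPM at D0 and 224, 223 and 227 TPM at D2 in siControl cells (interaction -1.60, SE 0.16, adjusted p = 0.0037). Ccn2 (overlapping), its relative and a target of YAP and TEAD, was at 90.1, 87.8 and 79.5 TPM at D0 and 73.9, 80.5 and 75.8 TPM at D2 in siKctd10 and 51.4, 52.5 and 48.1 TPM at D0 and 132, 141 and 134 TPM at D2 in siControl cells (interaction -1.56, SE 0.11, adjusted p = 0.00071). Ccn3 rose in both arms. Ccn2 rose in control cells and did not pass in depleted cells (adjusted p = 0.13), where median-ratio scaling called it lower at D2. Dpt (dermatopontin, a matrix protein) stayed between 0.667 and 1.25 TPM in all depleted libraries and rose in siControl cells (0.746, 0.457 and 0.43 TPM at D0 and 8.43, 6.40 and 7.07 TPM at D2, interaction -2.15, adjusted p = 0.0019). Cxcl13, a chemokine, was at 2.08, 3.14 and 2.65 TPM at D0 and 12.7, 12.7 and 9.62 TPM at D2 in siKctd10 and reached 66.6, 61.7 and 59.1 TPM in siControl cells at D2 (interaction -1.75, adjusted p = 0.019), a call lost without the libraries numbered 3 (adjusted p = 0.082). Cavin2, a caveolar protein gene, was at 113, 108 and 131 TPM at D0 and 159, 155 and 168 TPM at D2 in siKctd10 and 56.6, 59.3 and 67.9 TPM at D0 and 180.2, 171 and 195 TPM at D2 in siControl cells (interaction -1.11, adjusted p = 0.0071). At D0 every depleted library is above every control library, and at D2 every one is below.

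Of the 49 genes with a larger or less negative change in depleted cells, 13 rose in both arms, 13 rose in siKctd10 and did not pass in siControl, 9 fell in both arms, 8 fell in siControl and did not pass in siKctd10, and 6 fell in siControl and rose in siKctd10. Kcnj2 (2 transcripts), an inward rectifier potassium channel of muscle, was at 50.03, 48.1 and 49.8 TPM at D0 and 77.6, 75.2 and 78.7 TPM at D2 in siKctd10 and 45.7, 43.9 and 44.9 TPM at D0 and 24.9, 25.4 and 28.1 TPM at D2 in siControl cells (interaction 1.39, SE 0.11, adjusted p = 0.00099). It rose in the depleted cells and fell in the controls. Sfrp2 (overlapping), a secreted Wnt antagonist, was at 8.07, 6.79 and 6.93 TPM at D0 and 95.1, 85.0 and 80.3 TPM at D2 in siKctd10 and reached 34.8, 29.9 and 33.9 TPM in siControl cells (interaction 1.63, adjusted p = 0.0035). Col12a1 (2 transcripts), a fibril-associated collagen, was at 36.7, 39.6 and 36.8 TPM at D0 and 206, 208 and 206 TPM at D2 and reached 75.1, 89.1 and 85.5 TPM in siControl cells (interaction 1.01, adjusted p = 0.0097). Both rose in both arms and more in siKctd10, and the Col12a1 interaction was lost without the libraries numbered 3 (adjusted p = 0.052). Pdk4, which restrains pyruvate oxidation, was at 86.1, 91.7 and 80.7 TPM at D0 and 63.4, 58.3 and 61.4 TPM at D2 in siKctd10 and 66.7, 80.6 and 70.5 TPM at D0 and 18.9, 22.8 and 20.5 TPM at D2 in siControl cells (interaction 1.27, SE 0.14, adjusted p = 0.0052). Cxcl5, a chemokine, was at 137, 158 and 149 TPM at D0 and 49.7, 42.8 and 57.2 TPM at D2 in siKctd10 and 119, 135 and 130.1 TPM at D0 and 13.3, 13.4 and 14.03 TPM at D2 in siControl cells (interaction 1.59, adjusted p = 0.0035). Pdk4 and Cxcl5 fell less in depleted cells, and their D2 libraries lie above all control D2 libraries.

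**Figure D4:**
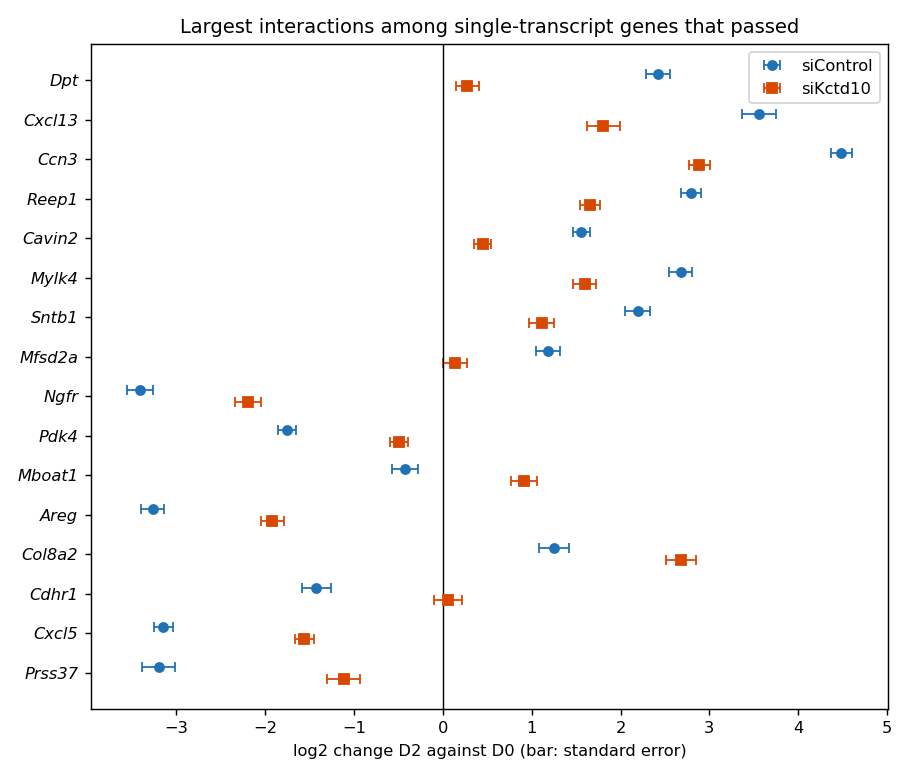
Log2 change from D0 to D2 (horizontal axis, bars are standard errors from the fit) of the 8 most negative and 8 most positive interactions among single-transcript genes that passed the interaction test with a mean of at least 5 TPM in some group, in siControl and siKctd10 cells. Dpt, Mfsd2a and Cdhr1 have changes near 0 in siKctd10 cells.

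Markers of other cell types were examined in the same libraries, and their part in the results was not tested. Of 12 macrophage and leukocyte markers 6, including Ptprc and Adgre1, were listed at 0 in all 6 depleted libraries, and none of the 3 tested passed. The endothelial list summed to 2.4 to 3.0 TPM at D0 and 2.9 to 4.3 TPM at D2. Of 13 adipocyte markers 7, including Fabp4, Adipoq and Plin1, were listed at 0. Of the 5 tested 3 rose and 1 fell. Lpl (4 transcripts), lipoprotein lipase, rose from 8.19, 16.2 and 20.1 TPM to 39.8, 33.1 and 43.7 TPM (log2 change 1.41, SE 0.35, adjusted p = 0.01). Pparg (5 transcripts) fell from 17.0, 15.6 and 19.5 TPM to 4.75, 5.91 and 4.53 TPM (log2 change -1.60, SE 0.16, adjusted p = 3.4e-05), while Cebpa rose from 17.2, 16.3 and 12.99 TPM to 26.0, 23.7 and 26.0 TPM (log2 change 0.68, SE 0.14, adjusted p = 0.0032), and the list summed to 47.7 to 58.8 TPM at D0 and 67.3 to 79.5 TPM at D2. In siControl cells it summed to 45.3 to 51.1 TPM at D0 and 31.2 to 40.9 TPM at D2, below every depleted library at D2. Smooth muscle markers, many of them shared with developing skeletal muscle, rose in 4 of 10 cases and fell in 1 (Cnn1, lost when any siKctd10 library other than D2 library 3 was left out), and their summed level was already 3352 to 6203 TPM at D0 and 4700.3 to 7026 TPM at D2, against 1814 to 1844 and 3240.1 to 3520.2 TPM in siControl cells. Of 5 osteoblast and chondrocyte markers tested 0 rose and 1 fell (Phex, log2 change -1.98, adjusted p = 2.6e-06). That list summed to 2855.5 to 3847.2 TPM at D0 and 3855.5 to 4400.6 TPM at D2. In siControl cells it summed to 4401.8 to 8478.9 TPM at D0 and 3487.3 to 4644.1 TPM at D2. Of 8 neural markers tested 5 rose and 3 fell. Ncam1 (7 transcripts), an adhesion molecule that muscle also makes, rose from 28.0, 49.7 and 46.7 TPM to 174, 173 and 162 TPM (log2 change 2.05, SE 0.23, adjusted p = 9.8e-05), and Map2 (9 transcripts), a microtubule protein gene, rose by 1.76 (adjusted p = 0.00015). The neurofilament gene Nefl fell from 497, 481 and 565 TPM to 114, 136 and 153 TPM (log2 change -1.93, SE 0.10, adjusted p = 7.4e-07). The myoblast markers Myod1 and Myf5 were well above 1 TPM in all 6 libraries.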

How the data were processed

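Poly(A)-selected RNA of 12 C2C12 libraries was sequenced, and the authors deposited transcript TPM and coverage per library, quantified with StringTie 1.3.3b on a fixed mm10 annotation, per the file headers. HISAT, SAMtools, DESeq2 and a StringTie version of 1.1.3 appear in the submitters' processing notes. Counts were not used here, so depth was estimated from the deposited coverage (202 bases per read pair) and gives no counting interval. Transcripts carry no gene symbols: of 63759, 42608 were matched by identical introns and 13473 by at least 50% overlap, 88.0% in all, and the unmatched ones held 3.82 to 4.63% of TPM. Whether reads were counted by strand is not given in the sources used here.

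TPM was summed per gene, genes with at least 1 TPM in at least 3 libraries were kept, and log2(TPM + 1) was fitted with limma 3.58.1 (R 4.3.3, trend and robust moderation) over all 12 libraries with 4 group means. Changes are on this scale, which understates those of low genes, and p-values were adjusted by Benjamini-Hochberg over 13076 genes at a threshold of 0.05. Nothing says that replicates were separate cultures, so p-values measure the spread between these samples. Deviations from the group mean of same-numbered siKctd10 libraries of the 2 days correlated at 0.091, 0.046 and 0.202. Those of differently numbered ones correlated at -0.142 to 0.066. In siControl cells same-numbered libraries were at 0.004, 0.008 and 0.016. Whether the numbers pair the samples is not settled by these values. The main fit used no block, and calls with a block are given below.

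Named were, among single-transcript genes past the threshold of the test concerned and with a mean of at least 5 TPM, the 15 largest rises and falls without overlap (predicted models and ribosomal protein genes left out) and the 8 largest interactions in each direction. Also named were up to 4 called members per list, list members that did not pass or moved against their list, and a list of 50 genes. Not every gene that these rules name is reported here. Members and lists were chosen with earlier results of these data known. Promoters were the 250 bases before the RefSeq start. The planned window also took in 50 transcribed bases, which were left out. The test was checked on simulated data, and the alternatives tried were other pseudocounts, filters, scalings, transcript matching, voom, a replicate block and leaving out libraries.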

Additional observations from a re-analysis of the deposited data

Results flagged for a closer look

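The change from D0 to D2 differed between siKctd10 and siControl cells, by the interaction test at an adjusted p under 0.05, for 35 of the genes named by rule or listed. Each value is the siKctd10 change minus the siControl change on the log2 scale.

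More positive in siKctd10 were the secreted and signalling genes Cxcl5 (1.59), Areg (1.35), Sfrp2 (1.63), Fzd1 (0.74), Lrp4 (0.66) and Ngfr (1.21). The collagens Col8a2 (1.43), Col12a1 (1.01) and Col6a2 (0.61) were also more positive. So were Kcnj2 (1.39), Pdk4 (1.27), Mboat1 (1.34), Cdhr1 (1.48), Itgb7 (1.11) and Prss37 (2.08). Prss37 is listed at 0 in all siControl libraries at D2.

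More negative in siKctd10 were the muscle genes Tmod1 (-3.54), Casq1 (-1.59), Acta1 (-1.53), Myh8 (-1.53), Mylk4 (-1.08), Sntb1 (-1.08) and Ldb3 (-0.99). The matrix and secreted genes Dpt (-2.15), Cxcl13 (-1.75), Ccn3 (-1.60), Ccn2 (-1.56) and Igfbp5 (-0.75) were more negative as well. The others were Reep1 (-1.14), Cavin2 (-1.11), Mfsd2a (-1.05), H19 (-0.93), Ccnd3 (-0.72), Fdft1 (-0.66), Pmaip1 (-0.65) and Gatm (-0.64).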

How the results depend on the processing

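The 4756 calls of D2 against D0 in siKctd10 became 4031 to 4347 when each library was left out in turn, and stayed within 1.5 times under 12 of 13 other settings. The 4639 calls in siControl cells became 3938 to 4113. A separate fit on single-transcript genes only, where fewer genes are tested, called 1674 in siKctd10 and 1658 in siControl cells. The 97 interactions were less stable, at 52 to 82 with 1 library left out. They numbered 62 with a pseudocount of 0.1 TPM, 167 with 5 TPM and 63 without the siKctd10 libraries numbered 3. With the replicate block 42 interactions and 4707 siKctd10 changes were called, and whether the numbers pair the samples is not settled. The cause was not tested. Kctd10 in siKctd10 against siControl stayed between -3.617 and -3.277 at D0 and between -3.24 and -2.968 at D2 on the log2 scale. Of 174 named genes called in siKctd10, 146 kept the call under every setting, and of 35 named interactions 9 did. No named change reversed. In other list counts of 1 or 2 members, leaving out libraries moved the count by 1. Genes with several transcripts, 3 libraries a group and the lack of counts limit precision.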
